A study of Rattus norvegicus with 21 samples.

Results

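A set of 10 genes that mark the cells of small brain vessels were followed across the dentate gyrus, the hippocampal subfield of granule neurons, in 6 groups of male rats. Of these 10 genes, 7 are expressed by endothelial cells (Cldn5, Slco1a4, Abcb1a, Pecam1, Flt1, Kdr and Tek) and 3 by pericytes (Abcc9, Pdgfrb and Rgs5). They were taken by name, as the probe sets annotated to exactly 1 of these symbols, from 14506 genes so named on the array. Where a gene had several probe sets, the one with the highest mean was used. All 10 passed the filter on low signal that left 10804 tested genes, and the filter was set on the mean of all animals. Their mean log2 signals lay between the 28.9 percentile of named probe sets (Kdr) and the 88.9 percentile (Rgs5).

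All animals were wild type Wistar rats of 2 months, with 3 in each group, and per the labels they were biological replicates. Control rats were untreated, and stress rats went through unpredictable chronic mild stress for 6 weeks. Rats of the other 4 groups had the same stress and, in its last 2 weeks, a daily intraperitoneal injection of fluoxetine (10 mg/kg in water), imipramine (10 mg/kg in saline), tianeptine (10 mg/kg in saline) or agomelatine (40 mg/kg in hydroxyethylcellulose). The labels describe injections for the drug groups alone, and a drug and its injection cannot be told apart. The comparisons ask what the stress did and what each drug did on top of it. Total RNA of the whole subfield was hybridised to 1 array per animal, plus a repeat array for each of the 3 control rats. Fewer vessel cells and less vessel RNA per cell cannot be told apart in such tissue.

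Brain capillaries are tubes of endothelial cells joined by tight junctions and wrapped by pericytes. Together with astrocyte endfeet they form the blood-brain barrier, in which claudins seal the gaps between cells while transporters carry nutrients in and pump drugs out. Endothelial growth and quiescence are set by vascular endothelial growth factors acting on Flt1 and Kdr and by angiopoietins acting on Tek, and pericytes are recruited through PDGF-B acting on Pdgfrb. The dentate gyrus keeps a neurogenic niche that lies close to its vessels.

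Tissue checks set the frame for these genes. Prox1 and C1ql2, which mark granule neurons, were at log2 11.05 and 11.17 or more in every animal, far above the low signal limit of 7.17. Rat 1 of the agomelatine group stood apart in choroid plexus genes, with a score of 3.38 over 5 measured markers, followed by rat 1 of the stress group at 0.96, while the other 16 rats lay between -0.44 and -0.10. A score is an animal's mean log2 deviation over the genes of a list, each gene being centred on all 18 rats. Markers of the meninges and of perivascular fibroblasts (10 measured) were highest in the same rats, at 0.89 and 0.51, followed by agomelatine 2 at 0.20, with all others up to 0.08. In the agomelatine group the oligodendrocyte score was 0.43 to 0.79 against -0.20 to 0.04 elsewhere, and the granule neuron score was -0.35 to -0.21 against -0.06 to 0.14.

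The promoters of the 3 genes that passed the test in any comparison below are shown for their sequence context. Each is the 250 bases before the RefSeq start in rat assembly GRCr8, with matches to an ETS core (AGGAAG or CGGAAG, the core read by endothelial ETS factors such as Erg) or a GC box (GGGCGG) on either strand in capitals.
Cldn5, chr11:95718599-95718848, minus strand: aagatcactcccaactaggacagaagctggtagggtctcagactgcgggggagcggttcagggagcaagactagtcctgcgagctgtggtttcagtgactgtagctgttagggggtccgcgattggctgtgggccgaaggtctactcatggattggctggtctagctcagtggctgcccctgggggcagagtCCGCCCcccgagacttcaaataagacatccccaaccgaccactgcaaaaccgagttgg
Slco1a4, chr4:176495847-176496096, minus strand: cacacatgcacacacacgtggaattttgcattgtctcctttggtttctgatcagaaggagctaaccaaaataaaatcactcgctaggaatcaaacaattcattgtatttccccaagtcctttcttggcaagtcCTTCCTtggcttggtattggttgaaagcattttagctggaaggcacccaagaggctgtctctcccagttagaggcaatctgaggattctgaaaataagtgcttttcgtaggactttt
Abcc9, chr4:177386349-177386598, minus strand: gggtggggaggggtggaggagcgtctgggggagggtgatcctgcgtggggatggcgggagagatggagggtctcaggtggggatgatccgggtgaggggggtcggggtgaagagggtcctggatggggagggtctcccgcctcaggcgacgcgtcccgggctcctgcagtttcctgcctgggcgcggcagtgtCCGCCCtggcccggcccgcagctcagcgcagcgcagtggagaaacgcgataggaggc
The capitals in Cldn5 and Abcc9 are a GC box on the reverse strand, and those in Slco1a4 are an ETS core on the reverse strand. Of the 10 genes, 7 had a promoter entry, and 3 of the 7 held an ETS core, 6 a GC box and 1 (Flt1) a TATA box written as TATAAA. Among all 27457 promoters of the same length the shares were 39.8%, 32.4% and 13.1%. These matches describe letters in a window and are no evidence of binding.

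Among the barrier genes, Cldn5, which encodes the main tight junction claudin of brain endothelium, was highest in stressed rats when both arrays of a control rat were averaged. Its log2 levels were 8.76, 8.86 and 8.82 in the stress group and 8.72, 8.66 and 8.55 in controls. The fluoxetine rats had 8.54, 8.78 and 8.38, and the imipramine rats 8.53, 8.53 and 8.49. The tianeptine rats had 8.71, 8.64 and 8.66, and the agomelatine rats 8.46, 8.52 and 8.39. Fluoxetine 2 exceeded the lowest stress rat, and every other rat outside the stress group lay below all 3 stress rats. For controls this holds for the averaged arrays. Their first arrays were at 8.904, 8.965 and 8.619, the first 2 above every stress rat, and their repeat arrays at 8.535, 8.348 and 8.473. The order of group means ran from stress through tianeptine, control, fluoxetine and imipramine to agomelatine, and the neighbours overlapped except stress and tianeptine.

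Slco1a4 encodes an organic anion transporter of the vessel wall, and its low group was fluoxetine. Fluoxetine rats had log2 levels of 8.74, 8.93 and 8.74, the 3 lowest of all 18. Controls had 9.04, 9.09 and 8.95, and stress rats 9.26, 9.05 and 9.02. Imipramine rats were highest on average at 9.11, 9.33 and 9.18, with tianeptine at 9.28, 9.19 and 8.93 and agomelatine at 9.30, 9.18 and 8.94. The 5 groups other than fluoxetine ran into each other, apart from imipramine, all of whose rats lay above all controls. Abcb1a, the P-glycoprotein that pumps many drugs out of the brain, was at 8.95, 8.97 and 9.002 with fluoxetine, 9.13, 9.22 and 9.23 in controls and 9.25, 9.30 and 9.18 with stress. Fluoxetine rats thus lay below every control and stress rat. The range over all 18 rats, 8.91 to 9.40, was set by agomelatine rats 3 and 2.

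Receptors and adhesion molecules of the endothelium overlapped between most groups. Flt1, the VEGF receptor 1 that acts largely as a decoy, had control levels of 9.57, 9.46 and 9.41 and stress levels of 9.44, 9.37 and 9.40. With fluoxetine it was at 9.14, 9.04 and 9.38, and with imipramine at a narrow 9.26, 9.28 and 9.30. Every fluoxetine and imipramine rat lay below every control. Kdr, the signalling VEGF receptor 2, spanned 7.25 to 7.58, the smallest range of the 10 genes, and lay just above the low signal limit. Tek, the angiopoietin receptor Tie2, had the widest range, from 7.70 in fluoxetine 3 to 8.57 in agomelatine 2. With fluoxetine Tek was at 7.998, 8.05 and 7.70, below all stress rats at 8.39, 8.10 and 8.14. Pecam1, the adhesion molecule of endothelial contacts, stayed within 8.04 and 8.29 except in agomelatine 2, at 8.53.

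Pericyte genes showed no shared order of the groups. Abcc9, the sulphonylurea receptor subunit of the pericyte potassium channel, was at 7.95, 8.28 and 8.22 in the agomelatine group, where the lowest rat lay just under the highest stress rat. Stress rats had 7.95, 7.77 and 7.91, controls 7.99, 7.97 and 7.94, fluoxetine rats 7.79, 7.86 and 7.95, imipramine rats 7.94, 7.83 and 7.86, and tianeptine rats 8.12, 7.95 and 7.95. The spread in the agomelatine group (SD 0.18) was the largest of the 6. Rgs5, a regulator of G protein signalling that marks pericytes, was at 10.59, 10.56 and 10.94 with fluoxetine, each below the control levels of 11.26, 11.04 and 10.94, although the nearest pair is equal at this rounding. Stress rats had Rgs5 levels of 11.14, 10.76 and 11.04. Pdgfrb, the receptor for PDGF-B, was lowest with imipramine at 9.12, 9.20 and 9.15, below all stress rats at 9.28, 9.26 and 9.38.

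**Figure D1:**
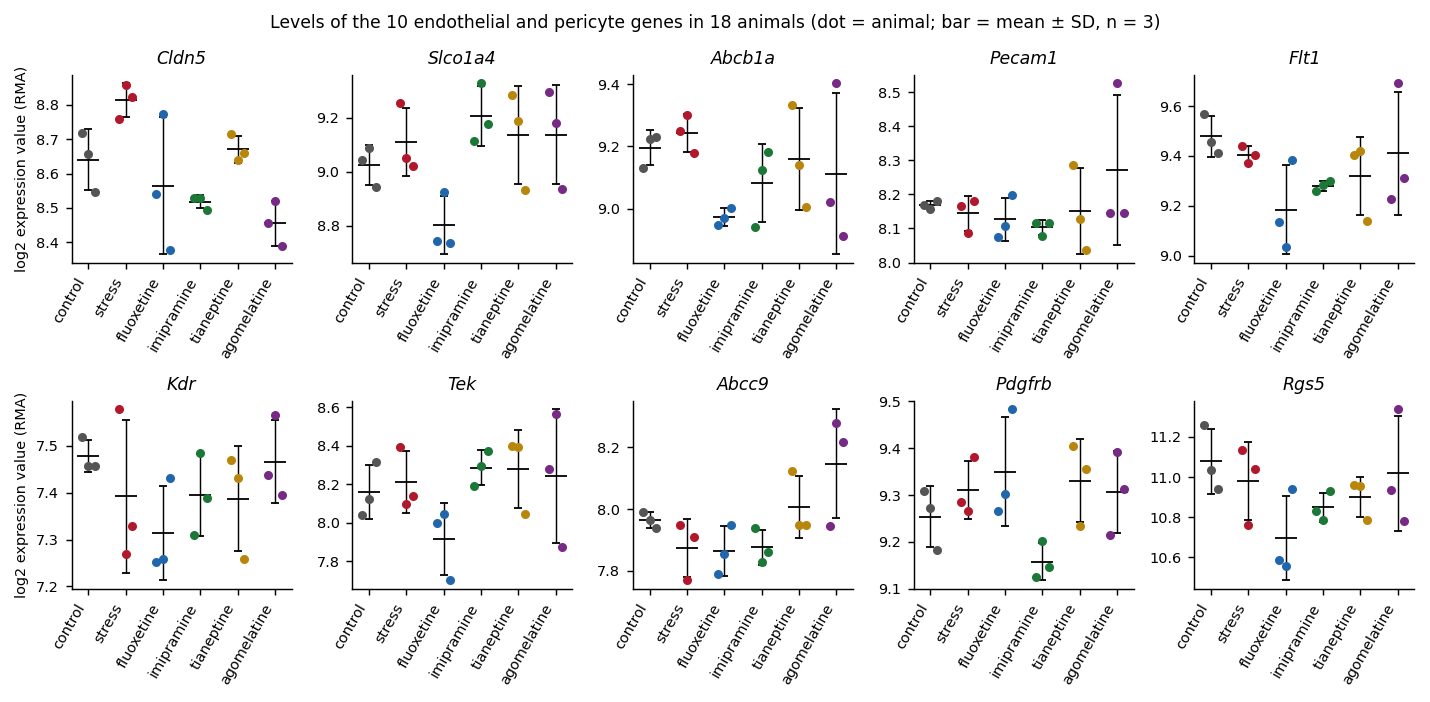
Log2 expression (RMA) of each of the 10 genes on the vertical axis for the 18 rats, by group, with each dot a rat and bars the mean and SD of 3 rats. Each panel has its own scale that does not start at 0. Both arrays of a control rat are averaged. Cldn5 so averaged is highest with stress and lowest with agomelatine, and 7 genes (Slco1a4, Abcb1a, Flt1, Kdr, Tek, Abcc9 and Rgs5) have their lowest group mean with fluoxetine.

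In the test of all 6 groups at once, none of the 10 genes passed an adjusted p of 0.05 by limma's moderated F test, which called 730 of all tested genes (6.76%). The smallest adjusted p-values were 0.0651 for Cldn5, 0.112 for Slco1a4 and 0.153 for Abcc9, and these 3 were the members with an unadjusted limma p under 0.05, which 23.9% of all genes had. With weights for array quality 3 members passed (Slco1a4, Flt1 and Rgs5), and Cldn5 passed without fluoxetine 2 or fluoxetine 3. The shares of all genes called in these fits are not given here.

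Stress alone left the vascular genes close to the control level. The median of the 10 log2 differences from control was 0.01, against 0.02 over all tested genes, with 5 above and 5 below 0. Cldn5 was higher by 0.17 ± 0.08 (SE; 3 rats against 3; limma unadjusted p = 0.0488, adjusted p = 0.828), and every stress rat lay above every control, as was so for 8.02% of all genes. limma called no member and no gene at an adjusted p under 0.05 (0%), with 583 genes at an unadjusted p under 0.05 (5.4%). The Cldn5 value leans on the control arrays. On the first arrays the control rats averaged 8.83 and on the repeat arrays 8.45, a gap of -0.38 (per rat -0.62 to -0.15), the widest of the 10 genes. Against the first arrays alone the difference was -0.02, and against the repeat arrays alone it was 0.36 and passed (limma adjusted p = 0.0469). The share of all genes called on the repeat arrays is not given here. With these arrays the limma adjusted p of Abcc9 also fell, from 0.889 to 0.548, at differences of -0.09 and -0.11. For the other 9 genes the gap between arrays ran from -0.12 (Slco1a4) to 0.10 (Abcb1a).

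Fluoxetine went with lower values in 9 of the 10 genes against stress and 9 of 10 against control, Pdgfrb being the exception in both. The median log2 difference was -0.24 from stress and -0.19 from control, while the medians over all genes were -0.01 and 0.01 and the shares of genes below 0 were 54.0% and 44.2%. These comparisons share the fluoxetine rats. Against stress the differences were -0.31 ± 0.10 (SE) for Slco1a4, -0.30 ± 0.15 for Tek, -0.28 ± 0.13 for Rgs5, -0.27 ± 0.10 for Abcb1a, -0.25 ± 0.08 for Cldn5 and -0.22 ± 0.11 for Flt1. On the linear scale these are differences of -14.2% (Flt1) to -19.2% (Slco1a4). Kdr, Pecam1 and Abcc9 were nearer to 0, at -0.08, -0.02 and -0.01. None passed the test: the smallest limma adjusted p was 0.959, limma called 0 genes in all (0%), and 541 (5.01%) had an unadjusted p under 0.05, among them Slco1a4, Cldn5, Abcb1a and Rgs5. For Slco1a4, Abcb1a and Tek every fluoxetine rat lay below every stress rat, which held for 5.74% of all genes.

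Against control, the fluoxetine rats lay lowest in Rgs5, by -0.38 ± 0.13 (SE; limma unadjusted p = 0.00797, adjusted p = 0.834). Flt1 differed by -0.29 ± 0.11, Tek by -0.24 ± 0.15, Slco1a4 by -0.22 ± 0.10 and Abcb1a by -0.22 ± 0.10. In 5 genes (Rgs5, Flt1, Slco1a4, Abcb1a and Kdr) all fluoxetine rats were below all controls, as in 4.49% of all genes. limma called no gene of the whole array (0%), with 528 at an unadjusted p under 0.05 (4.89%). Array weights took Rgs5 past the threshold, at -0.48 with a limma adjusted p of 0.0421, without a share of all genes to set beside it here. The count of members below 0 against stress was 7 without stress 1 and 10 without fluoxetine 3. Meningeal markers were also lower than in stressed rats in 7 of 10 cases (median -0.26; scores -0.30 to 0.08 against -0.09 to 0.51) and choroid plexus markers in 5 of 5 (median -0.22), with none called. Stress 1 was the highest stress rat in both, and the part of these cells in the result was not tested.

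**Figure D2:**
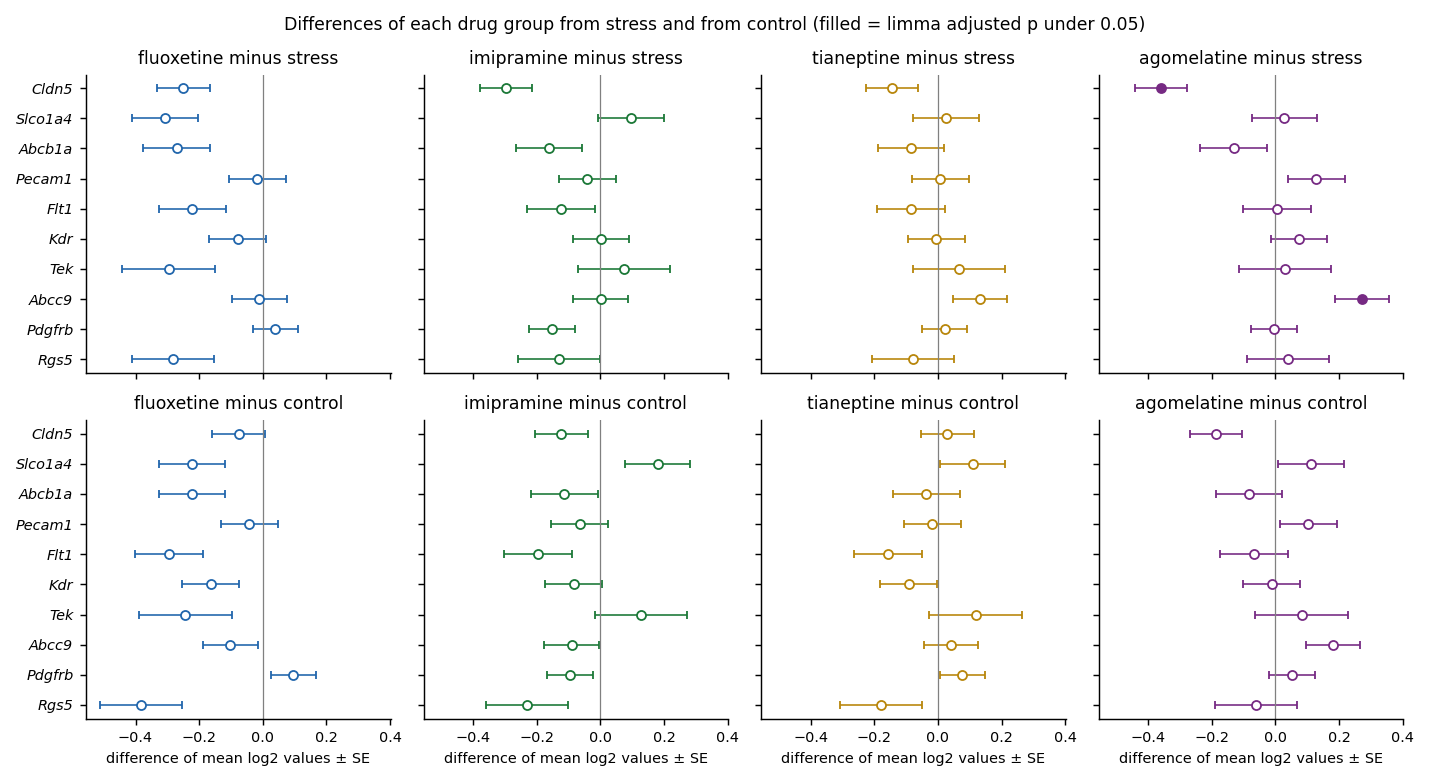
Difference of mean log2 values for the 10 genes between each drug group and the stress group (top) or control group (bottom), with bars for the standard error from limma and filled dots for an adjusted p under 0.05. Of the 10 dots, 9 lie left of 0 for fluoxetine in both rows, and the filled dots are Cldn5 and Abcc9 in agomelatine against stress.

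Imipramine rats had lower Cldn5 than stress rats, by -0.30 ± 0.08 (SE), and the groups did not overlap. On the linear scale this was -18.5%, and it missed the threshold (limma unadjusted p = 0.00200, adjusted p = 0.459). Flt1 (-0.12 ± 0.11) and Pdgfrb (-0.15 ± 0.07) were likewise lower in every imipramine rat than in every stress rat. Such separation downward was found in 12.6% of all genes, limma called 0 genes (0%), and 1081 had an unadjusted p under 0.05 (10%). Against control, 8 of 10 members were below 0 with a median of -0.09, where 53.8% of all genes were below 0. Cldn5, Flt1, Pecam1, Abcc9 and Rgs5 lay below all controls (10.1% of genes did) and Slco1a4 above them (9.14%). For Abcc9 the nearest rats were all but equal, imipramine 1 at 7.939 and control 3 at 7.9395. The first and repeat arrays of control 3 were at 7.862 and 8.017. limma called none of the 10, and 2 genes in all (0.0185%), with 894 at an unadjusted p under 0.05 (8.27%). The largest was Rgs5, at -0.23 ± 0.13 (SE). Meningeal markers lay below 0 in 9 of 10 cases against stress and 10 of 10 against control, and their part was not tested.

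Tianeptine rats stayed nearest to the stress and control levels. Medians of the 10 differences were 0.00 from stress and 0.01 from control, with 5 genes on each side of 0 in both. Cldn5 lay below all stress rats (-0.14 ± 0.08, SE) and Abcc9 narrowly above them (0.13 ± 0.09), where 6.6% of all genes separated downward and 4.6% upward. Against control no member separated, where 10.9% of genes did. limma called no gene in either comparison (0%), with 547 (5.06%) and 436 (4.04%) genes at an unadjusted p under 0.05.

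In the agomelatine group Cldn5 fell and Abcc9 rose against stress. The fall of Cldn5 was -0.36 ± 0.08 on the log2 scale (SE; 95% interval -0.53 to -0.19; limma adjusted p = 0.0102), a level 0.779 times that of stress rats, and all 3 agomelatine rats lay below all 3 stress rats (15.9% of genes). Abcc9 rose by 0.27 ± 0.09 (95% interval 0.09 to 0.45; limma adjusted p = 0.0484), or 20.8%, with the lowest agomelatine rat inside the stress range. These are 2 of 10 members, in a comparison that called 10.8% of all genes (4.18% higher, 6.58% lower). The other 8 differences ran from -0.13 (Abcb1a) to 0.13 (Pecam1), and the median over the 10 was 0.03 against -0.03 over all genes. Against control Cldn5 differed by -0.19 ± 0.08 (limma adjusted p = 0.161) and Abcc9 by 0.18 ± 0.09 (adjusted p = 0.193), and none of the 10 passed where 9.59% of all genes did.

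Both calls have limits that the data show. The gap of -0.38 in Cldn5 between repeat and first arrays of the same control rats is as large as its fall with agomelatine. The Cldn5 call was kept without each rat in turn (-0.39 to -0.33; limma adjusted p 0.00383 to 0.0449) and was lost with all 21 arrays and rat as a random block (adjusted p = 0.0870) and with only the 2 groups in the fit (adjusted p = 0.0661). Abcc9 has a second probe set, which did not follow the first (r = 0.34 over 18 rats; a description). On it agomelatine rats averaged 7.81 ± 0.22 (SD, n = 3) and stress rats 7.84 ± 0.20, and the mean of both probe sets differed by 0.12 (adjusted p = 0.442). The Abcc9 call was lost without either of the high agomelatine rats (0.21 without agomelatine 2, adjusted p = 0.142; 0.24 without agomelatine 3, adjusted p = 0.116) and without stress 2 (0.22, adjusted p = 0.181). Over all alternatives it was kept in 8 and lost in 23. Oligodendrocyte markers were higher in agomelatine than stress rats in 9 of 9 cases, all called (median 0.48), and granule neuron markers lower in 5 of 5 (2 called; median -0.24). Their part in these results was not tested.

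**Figure D3:**
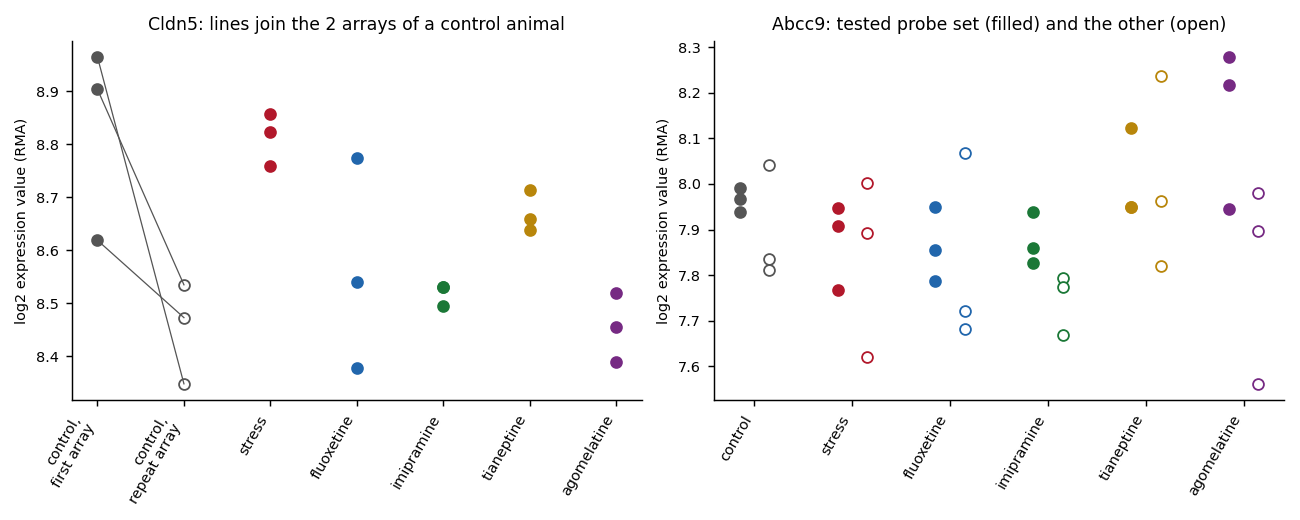
Log2 expression (RMA, vertical axes not starting at 0) of Cldn5 on each array of the control rats and in the other groups (left), and of the 2 Abcc9 probe sets in all rats (right). Lines join the first and repeat arrays of a rat, which fall by 0.15 to 0.62, and the open circles of the second Abcc9 probe set are not higher with agomelatine.

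Agomelatine rats had the largest SD of the 6 groups in 7 of the 10 genes. The exceptions were Cldn5 and Pdgfrb, where it was fluoxetine (0.20 and 0.12), and Kdr, where it was stress (0.16). Agomelatine 2 had the highest level of all 18 rats in 6 genes (Abcb1a, Abcc9, Pecam1, Flt1, Tek and Rgs5). The score of the 10 genes was 0.24 in this rat and -0.01 and -0.08 in agomelatine 1 and 3. Without agomelatine 2 the median difference of the 10 genes became -0.08 from stress and -0.07 from control, and Pecam1 against control turned from 0.10 to -0.02. Agomelatine 1, the rat with the choroid plexus score of 3.38, had a vascular score near the average of all rats.

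Between drugs, agomelatine against fluoxetine was the comparison in which members passed. Slco1a4 was higher with agomelatine by 0.33 ± 0.10 (SE; limma adjusted p = 0.0423), with all rats separated (10.3% of genes), and Abcc9 by 0.28 ± 0.09 (adjusted p = 0.0398), with touching ranges. These 2 of 10 stand beside 11.8% called among all genes. Slco1a4 lost the call without agomelatine 1 (0.26, adjusted p = 0.152), agomelatine 2 (0.31, 0.0872), fluoxetine 1 (0.31, 0.114), fluoxetine 3 (0.30, 0.110), imipramine 3 (0.33, 0.0541) or control 1 (0.33, 0.0519). Abcc9 lost it without agomelatine 2 (0.22, adjusted p = 0.114), agomelatine 3 (0.25, 0.0987), fluoxetine 1 (0.25, 0.126), fluoxetine 2 (0.28, 0.0947) or imipramine 3 (0.28, 0.0524). On the second Abcc9 probe set agomelatine and fluoxetine rats averaged 7.81 and 7.82, and the mean of both probe sets differed by 0.14 (adjusted p = 0.387). Doses and vehicles differ between these groups. Slco1a4 was also 0.40 ± 0.10 higher with imipramine than with fluoxetine, both at 10 mg/kg, without passing (unadjusted p = 0.000970, adjusted p = 0.326), in a comparison where limma called 0 genes (0%) and 1191 had an unadjusted p under 0.05 (11%). In the other 4 pairs of drugs no member was called. limma called 0 genes (0%) in tianeptine against fluoxetine and against imipramine, with 481 (4.45%) and 664 (6.15%) at an unadjusted p under 0.05. The nearest were Abcc9 in agomelatine against imipramine (0.27, adjusted p = 0.0535; 9.39% of genes called) and Cldn5 in agomelatine against tianeptine (-0.22, adjusted p = 0.0891; 13.5% called).

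Within groups most pairs of the 10 genes were positively correlated from rat to rat. After subtracting group means, 37 of their 45 pairs had a Pearson correlation above 0 over the 18 rats, with a median of 0.47 and a median Spearman rho of 0.42. The closest pair was Flt1 and Rgs5 at 0.85, an endothelial and a pericyte gene, followed by Pecam1 and Flt1 at 0.83 and Abcb1a and Pecam1 at 0.82. For Cldn5 the Pearson values were below 0 against Kdr (-0.23), Flt1 (-0.18), Rgs5 (-0.12), Pdgfrb (-0.11) and Abcc9 (-0.07), but the Spearman values turned above 0 for all of these except Kdr (-0.11), at 0.05 to 0.21, so that these pairs have no settled sign. The lowest pair was Tek and Pdgfrb at -0.25. Leaving out agomelatine 2 and 3, the rats farthest from the median, brought the median of all pairs to 0.34. All points share arrays and normalisation, and rats of 1 group share their treatment, so these values are descriptions. Pairs of other tested genes are not given for comparison, so variation shared by many genes of an array is not set apart.

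Other vascular genes followed the 10 from rat to rat. Within groups the score of the 10 correlated at 0.88 with that of 20 other endothelial genes, at 0.86 with VEGF, angiopoietin and PDGF pathway genes and at 0.79 with 10 other pericyte and smooth muscle genes. With the junction genes it was 0.53 and with barrier transport genes 0.61. Against non-vascular markers it was 0.35 for astrocytes (Spearman rho 0.20), 0.28 for meninges (rho 0.43), -0.09 for granule neurons (rho -0.06), -0.11 for microglia (rho -0.01) and -0.19 for oligodendrocytes (rho -0.04). For choroid plexus it was -0.10, and the rho of 0.19 has the other sign. Hbb, the 1 measured blood cell gene of 8, had 0.65. The tested genes most like the mean of the members were Triobp (r = 0.93 over 18 rats within groups), Tmem54 (0.93), Sebox (0.91), Crlf2 (0.89), Lpar2 (0.88), Gnao1 (0.88), Lyve1 (0.87), Podxl (0.87), Nherf1 (0.87) and Efna4 (0.87). Of these 10, 1 belongs to a list used here, Podxl, which encodes a sialomucin of the luminal endothelial surface. For Kdr alone the closest were Igf1 (0.91), the insulin-like growth factor, and Cyyr1 (0.90). For Cldn5 the closest was Tubb2a, a neuronal tubulin, at 0.78, falling to 0.38 without fluoxetine 2 and 3.

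**Figure D4:**
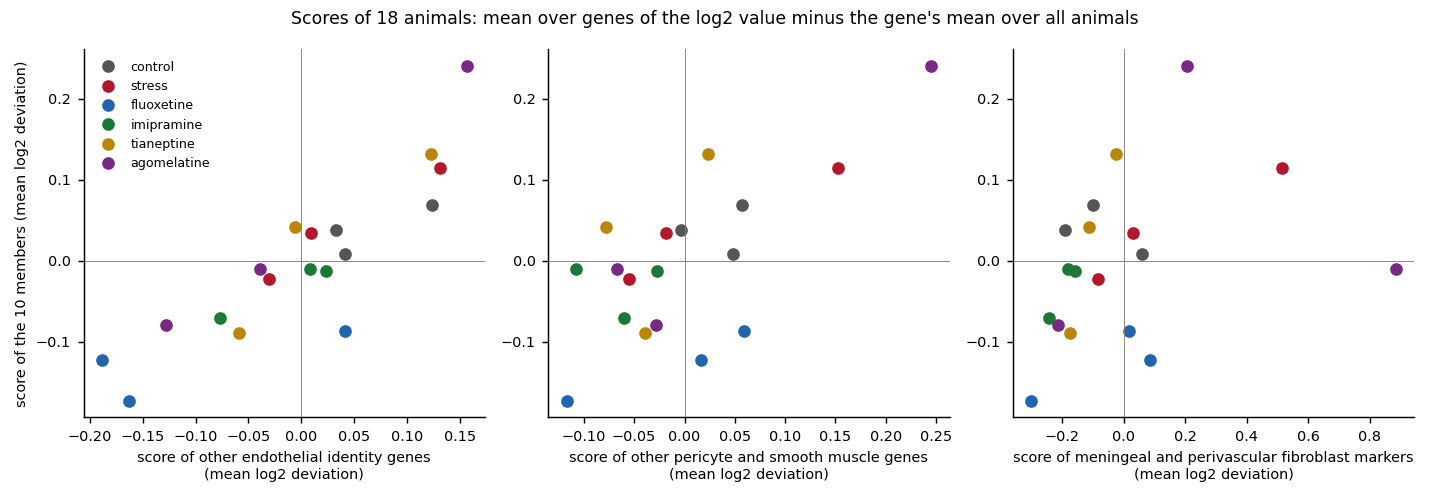
Score of the 10 genes (vertical axis, mean log2 deviation) against the scores of 20 other endothelial genes, 10 other pericyte and smooth muscle genes and 10 meningeal markers (horizontal axes), with 1 dot per rat coloured by group. Fluoxetine rats lie at -0.17 to -0.09 on the vertical axis, agomelatine 2 is at the top at 0.24, and agomelatine 1 is at the far right for meningeal markers at 0.89.

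Of 17 ligands and co-receptors of the same pathways 15 were tested. With agomelatine 1 of 15 was called against control, beside 9.59% of all genes, and 0 against stress. The called gene was Pdgfc, a PDGF ligand, which rose by 0.33 ± 0.07 (SE; limma adjusted p = 0.0107). Without control 1 the Pdgfc difference was 0.29 (adjusted p = 0.0538), and with only the groups compared the call was lost too (limma adjusted p = 0.0989). Pdgfc also lay above all controls with stress alone (0.23, limma unadjusted p = 0.00597, adjusted p = 0.828) and with imipramine (0.22, limma unadjusted p = 0.00763, adjusted p = 0.433). Such separation upward was found in 8.02% and 9.14% of all genes. Its mean was 8.47 with agomelatine, 8.37 with stress, 8.37 with imipramine and 8.14 in controls. Vegfb, a ligand of Flt1, was lower with agomelatine in every rat, by -0.26 ± 0.08 from stress (limma adjusted p = 0.0514) and -0.23 from control (0.0931). Such separation downward was found in 15.9% and 13.3% of all genes. With fluoxetine 9 of 15 were below 0 against stress (median -0.05), and the named one was Angptl4, an angiopoietin-like protein, at -0.21 ± 0.08 (adjusted p = 0.959). Against the other drugs agomelatine rats had 1 called gene where fluoxetine was the reference (Vegfb, -0.30), 1 for imipramine (Pdgfd, a PDGF ligand, -0.37) and 3 for tianeptine (Vegfb, -0.28; Vegfc, the ligand of VEGF receptor 3, -0.23; Pdgfc, 0.25), with limma adjusted p-values of 0.0260 to 0.0462 and shares of 11.8%, 9.39% and 13.5% over all genes. Genes of the lists called between drugs were named after their values were seen, and they were not refitted without each rat.

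Of 8 tested junction genes 1 was called with agomelatine against stress, where 6.58% of all genes were called lower, and the list had 5 genes above 0 and a median of 0.01. The gene was Cldn12, a claudin, which fell by -0.43 ± 0.08 (SE) from stress (limma adjusted p = 0.00415) and -0.31 ± 0.08 from control (adjusted p = 0.0239; 0.138 without control 2, 0.0842 without agomelatine 1 and 0.0501 without agomelatine 2). The Cldn12 call against control was also lost with the repeat control arrays alone (-0.24, limma adjusted p = 0.0780), array weights (0.0796) or only the groups compared (0.0635). Of 14 tested transport genes 3 were called lower and none higher against stress, with a median of -0.19 and 10 below 0, beside 6.58% of all genes called lower and a median of -0.03. Slc2a1, the glucose transporter of the barrier, fell by -0.30 ± 0.07 (adjusted p = 0.0148), Slc3a2, the heavy chain of the large amino acid transporter, by -0.22 ± 0.06 (adjusted p = 0.0251), and Ager, a receptor for glycated proteins, by -0.27 ± 0.08 (adjusted p = 0.0328). Agomelatine 3 was the lowest rat of all 18 in 8 of the 14, Slc2a1 and Slc3a2 among them. Slc2a1 lost its call without agomelatine 3 (-0.22, adjusted p = 0.0571) or stress 3 (-0.27, 0.0577), and Slc3a2 without agomelatine 2 or 3 or any 1 stress rat (adjusted p 0.0552 to 0.0792). Ager lost it without agomelatine 1 (-0.18, adjusted p = 0.130), agomelatine 3 or any 1 stress rat. All 3 calls were also lost with array weights (limma adjusted p 0.0729 to 0.0867) and with all 21 arrays (0.0554 to 0.0649). The same held with only the groups compared (0.0891 to 0.197). Against control Ager alone of the transport genes was called (-0.27, limma adjusted p = 0.0325), beside 4.31% of all genes called lower. That call was lost without agomelatine 1 or any 1 control rat. It was also lost with the repeat control arrays alone, array weights, equal array medians or only the groups compared. Slc3a2 averaged 11.97 in controls, 12.12 with stress and 11.89 with agomelatine, and every stress rat lay above every control (8.02% of all genes). Several of these genes are expressed outside vessels too. Astrocyte markers were below 0 in 9 of 9 cases in the same comparison (median -0.18), of which Aldh1l1, a folate enzyme, was called (-0.24 ± 0.06, adjusted p = 0.0186). Their score was -0.25 in agomelatine 3, the lowest of all 18 rats, -0.01 and 0.02 in the other agomelatine rats and 0.02 to 0.12 with stress, and their part in the transport genes was not tested. Against the other drugs Cldn12 was called lower in all 3 comparisons (-0.47 to -0.44). Of all genes 6.71% were called lower against fluoxetine, 4.35% against imipramine and 6.98% against tianeptine. Beside the same shares, transport genes called lower were Slc3a2 against fluoxetine, Slc2a1 and Slc19a3, a thiamine transporter, against imipramine, and Slc2a1 against tianeptine. With fluoxetine 11 of 14 transport genes were below 0 against stress (median -0.10), none called. The transport score was -0.08 and -0.12 in fluoxetine 1 and 2 but 0.07 in fluoxetine 3. Abcg2, a drug efflux pump, was at -0.34 ± 0.13 and Slc40a1, the iron exporter ferroportin, at -0.31 ± 0.07. In each all fluoxetine rats lay below all stress rats, as in 5.74% of all genes.

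Other endothelial identity genes repeated the low values in fluoxetine 1 and 2 (scores -0.16 and -0.19) but not in fluoxetine 3 (0.04). Stress rats scored -0.03 to 0.13 and controls 0.03 to 0.12, and the rats are the same as above. Of these genes 17 of 20 were below 0 against stress (median -0.18) and 19 of 20 against control (median -0.16), with none called. Itm2a (-0.31 ± 0.12, SE), Cyyr1 (-0.28 ± 0.11) and Egfl7 (-0.25 ± 0.11), the last an endothelial secreted factor, were among 5 of 20 genes lower than in all stress rats (5.74% of all genes were), and Cyyr1, Podxl, Klf2 and Nos3 among 6 lower than in all controls (4.49% of all genes). Klf2 is a transcription factor induced by flow and Nos3 the endothelial nitric oxide synthase. Cdh5, the VE-cadherin of endothelial junctions, was at -0.32 ± 0.14 from control. Separation from stress was not limited to fluoxetine. With imipramine Itm2a (-0.28) and Egfl7 (-0.24) were also lower than in all stress rats, as were 12.6% of all genes. Cyyr1 was so with agomelatine (-0.26), as were 15.9% of all genes, whereas Itm2a averaged 9.67 with agomelatine and 9.44 with stress. None of these differences was called. With agomelatine 1 of 20 was called against stress, a smaller share than the 10.8% of all genes. It was Egfl7, which fell by -0.40 ± 0.11 (limma adjusted p = 0.0329); it was named after its values were seen, since its groups overlap. That call was lost without agomelatine 3 (-0.27, adjusted p = 0.127), agomelatine 1, stress 1 or stress 3. It was also lost with array weights (limma adjusted p = 0.145), all 21 arrays (0.0538), equal array medians (0.0503) or only the groups compared (0.156). Against the other drugs Itm2a was called higher with agomelatine than with fluoxetine (0.54 ± 0.12, adjusted p = 0.00652) and imipramine (0.51 ± 0.12, adjusted p = 0.0106). It was the 1 called gene of 20 in each, a smaller share than the 11.8% and 9.39% of all genes.

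Of 10 other pericyte and smooth muscle genes 1 was called with agomelatine against stress and against control, beside 10.8% and 9.59% of all genes. Mcam, the adhesion molecule CD146, rose by 0.46 ± 0.07 (SE) from stress (limma adjusted p = 0.00147) and by 0.49 ± 0.07 from control (adjusted p = 0.000941), with no overlap in either. Such separation upward was found in 9.36% and 12.4% of all genes. The remaining 9 were not called in these comparisons, and the list median was 0.01 from stress. Against the other drugs Mcam was likewise called higher in all 3 comparisons (0.51 to 0.53), and Tagln, a smooth muscle actin-binding protein, was called higher against tianeptine (0.48 ± 0.15, adjusted p = 0.0426). Of all genes 5.07% were called higher against fluoxetine, 5.04% against imipramine and 6.51% against tianeptine. With imipramine all 10 lay below 0 against control (median -0.09), none called. With fluoxetine 6 of 10 lay below 0 against stress (median -0.04), and 8 of 10 against control (median -0.05).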

How the data were processed

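RNA of the dentate gyrus of 18 rats was measured on 21 arrays. Per the submitters' processing notes the authors deposited log2 expression values made with RMA in Affymetrix Expression Console 1.2, which corrects background, quantile-normalises arrays and summarises probes. Small differences at low signal are compressed by it. Genome build and scan rounds are not given in the sources used here. Of 29214 probe sets 15310 had 1 symbol in the platform annotation, and 15279 of those matched the RefSeq table of GRCr8.

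Both arrays of a control rat were averaged. Genes with a mean under the 25th percentile (log2 7.165) were left out. Group means of the 18 rats were fitted in limma 3.58.1 (R 4.3.3; 12 residual degrees of freedom, eBayes with trend), and each of 15 comparisons was adjusted over 10804 genes by Benjamini-Hochberg. A gene rose, fell or was called at an adjusted p under 0.05. The scripts were tested on simulated data. Arrays have no read depth, so the number of animals limits the precision. Named list genes had an unadjusted p under 0.05 and no overlap between groups, up to 4 a list and comparison. Not every gene that met this rule is named above. Those left out include Slc19a3 (higher) and Sox18 (lower) with stress and imipramine against control, and Mfsd2a (higher) with tianeptine against control, none called. Genes most like a member were ranked by Pearson r within groups. Members and lists were chosen with earlier results of these data known. Alternatives covered control arrays, filter, variance, scaling, probe sets, replicate block, threshold, groups in the fit and each rat left out.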

Additional observations from a re-analysis of the deposited data

How the results depend on the processing

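Counts of members called moved with the processing more than the differences did. Counts over all genes moved too, as given below for some alternatives of agomelatine against stress and, for the F test, without agomelatine 1. For the other alternatives, such as the F test with array weights, they are not set beside the members here. Against control, 1 member was called for stress with the repeat arrays alone, 1 for fluoxetine with array weights and 1 for agomelatine with the first arrays alone, against 0 each. For agomelatine against stress the 2 called members became 1 with the first arrays, the repeat arrays, no low signal filter, array weights or the mean of all probe sets, and 0 with all 21 arrays, with only the groups compared, or with the filter at the 50th percentile, which drops both genes. Without each rat in turn the count was 1 to 2. The F test called 1 member with the first or the repeat arrays and at an adjusted p under 0.1, 3 with array weights, and 0 to 1 without each rat. Imipramine against fluoxetine called 1 with array weights.

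Agomelatine against fluoxetine called 1 in place of 2 with the repeat arrays, all 21 arrays, the 50th percentile filter, equal array medians or the mean of probe sets, 0 with no filter or only the groups compared, and 0 to 3 without each rat. Agomelatine against imipramine called 1 without the variance trend, with a further quantile normalisation or at an adjusted p under 0.1, and 0 to 1 without each rat. Agomelatine against tianeptine called 1 at an adjusted p under 0.1, and 0 to 1 without each rat. The comparisons between drugs, the counts below 0 and the list genes were added to the alternatives after seeing the data.

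Signs turned for Cldn5 with the choice of control arrays, to -0.015 (stress, first arrays), 0.066 (imipramine, repeat arrays) and 0.0023 (agomelatine, repeat arrays) against control. Pecam1 in agomelatine against control ran from -0.024 to 0.168 without each rat. The median over the 10 genes without each rat ran from -0.0715 to 0.053 (agomelatine against control) and from -0.083 to 0.119 (agomelatine against stress). A further 75 sign changes concerned differences within their own standard error.

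Equal replicate numbers did not pair the rats, as the correlations of 45 same-numbered pairs had a median of -0.02 (-0.30 to 0.29, 10 above 0.1). With the replicate block 1 member was called in agomelatine against stress (Cldn5, limma adjusted p = 0.0108) and 1 in agomelatine against fluoxetine. Over all genes agomelatine against stress called 1163, and 156 with only the groups compared, 573 without stress 2, 637 with array weights and 702 with all 21 arrays. The F test called 730, and 251 without agomelatine 1. The cause of these shifts was not tested.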
